A study of Homo sapiens with 4 samples.

Results

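The replication-dependent histone genes with a probe numbered 70 of the 20046 genes named by a single-gene probe, and 80 of the 47230 probes with a value on every array. They were taken as all probes whose annotated gene carries, or formerly carried, a symbol beginning with HIST1H, HIST2H, HIST3H or HIST4H. Of these probes, 79 belonged to single genes, and ILMN_1881081 was annotated to both H3C11 and H3C6 and is left unnamed. The cells were L591, a line derived from Hodgkin lymphoma. One group was transfected with 40 µg of a pcDNA3 plasmid carrying PDLIM2 transcript variant 2 (PDLIM2) and the other with 40 µg of pcDNA3 without an insert (mock). All samples also received 10 µg of the GFP plasmid pEGFP-N3 and were sorted for GFP. There were 2 Illumina bead arrays per group, which the sample titles number 1 and 2. PDLIM2 belongs to the PDZ and LIM domain family, and the comparison asks which transcripts differ in cells that were given it transiently.

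Replication-dependent histone genes supply the core histones H2A, H2B, H3 and H4, around which DNA is wound, and the linker histone H1, which binds between nucleosomes. They lie in clusters of many near-identical copies and are transcribed mainly in S phase, when new DNA has to be packaged. Their mRNAs usually end in a stem-loop bound by SLBP instead of a poly(A) tail, although some members also give polyadenylated transcripts. Polyadenylated RNA is what the labels name as the extract. How far a probe for a stem-loop transcript follows the level of that transcript in the cells was therefore not known here, and the coding parts of the copies are so alike that a probe may read more than 1 of them.

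On all 4 arrays the median probe value lay between 6.006 and 6.007 log2 units. The 2 probes of PDLIM2 itself were dim, at percentiles 6.14 and 2.99 of all probes, and differed by 0.31 (SE 0.18) and -0.29 (SE 0.15) log2 units, so they do not check the labels. The chemokine gene CCL22 and the actin-bundling gene FSCN1, markers of Hodgkin cells, stood at percentiles 99.4 and 99.7. The Hodgkin markers TNFRSF8 (CD30) and CCL17 stood lower, at 68.3 and 54.6. Of the B-cell genes, CD79A was at 96.5 and MS4A1 at 53.2. Median percentiles over each list were 95.6 (8 Hodgkin markers), 85.6 (5 B-cell genes with a probe), 28.8 (6 T-cell genes) and 62.1 (5 myeloid genes). The B-cell factor gene PAX5 was at 23.8, and the T-cell receptor genes CD3D, CD3E and CD3G were at 34.2, 21.7 and 39.6. CD2, also on the T-cell list and the tested member of its 6, was bright on every array, at percentile 96.9. Whether arrays with different numbers go back to different cultures is not stated, so a p-value reflects the spread among these 4 samples, and that spread may be technical. Precision is limited by having 2 arrays against 2.

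Most histone probes read above the median probe of the array although the RNA was described as polyadenylated. Probes were tested where they averaged more than the median probe (5.99 log2 units), and 68 of the 80 (85%) met this, for 63 of the 70 genes. Of the 80, 34 lay above the 75th percentile of all probes and 11 above the 90th. The 7 genes with no tested probe were H1-6, H2AC1, H2BC1, H3-4, H2AC7, H4C7 and H4C13, of which H1-6, H2AC1, H2BC1 and H3-4 encode the testis forms of H1, H2A, H2B and H3. The 12 probes under the filter stood between percentiles 4.96 and 47.8, and their differences between the groups ran from -0.14 to 0.23 log2 units. The tested ones stood between percentiles 58.1 and 99.4. Brightness differs between probes for reasons of their sequence, so levels of different genes are not set against each other.

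With PDLIM2, no histone probe passed the test. Of the 68 tested probes, limma called 0 higher and 0 lower at an adjusted p under 0.05, as it did for all 23615 tested probes (0% called in each direction), and every histone probe had an adjusted p of 0.9998. At an unadjusted p under 0.05 there was 1 histone probe, for H4C2, with a higher value, and 0 with a lower value, where 1.08% and 1.74% of all tested probes had one. None of the 68 reached a 1.5-fold difference in either direction, which 0.449% (higher) and 1.64% (lower) of all tested probes did. Differences ran from -0.38 to 0.55 log2 units, and 46 of the 68 lay between -0.2 and 0.2. The 95% intervals extended a median of 0.44 log2 units to either side of the difference. For 35 of the 68 they included a 1.5-fold change in at least 1 direction, so such a change was not excluded for these.

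Beneath the threshold, most histone probes had values slightly above mock. The mean difference was above 0 for 52 of the 68 and below 0 for 16, against 52.8% above 0 among all tested probes, and its median was 0.11 log2 units, against 0.012 over all tested probes. Both arrays with PDLIM2 gave a higher value than either mock array for 19 of the 68 (27.9%), against 15.8% of all tested probes. Both gave a lower value for 3 (H2AC25, H3C6 and ILMN_1881081), against 12.8%. The higher values without overlap were mostly those of dim probes. Among the 34 brighter histone probes there were 5 (14.7%), against 17.03% of all tested probes of that brightness, and among the 34 dimmer ones 14 (41.2%), against 14.5%. The mean difference was above 0 for 26 of 34 in each. Members share sequence and are not replicates, so these shares describe the family and carry no p-value. Counted once per gene by its brightest probe, 48 of 63 genes were above 0.

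Compared by array number, the excess was seen between the arrays numbered 2 and not between those numbered 1. Same-numbered arrays share only a number in the labels, so this pairing is a way of describing the values. Other pairings of the arrays were not compared here. Between the arrays numbered 1, PDLIM2 minus mock was above 0 for 29 of the 68 probes, against 50.4% of all tested probes, with a median of -0.020 log2 units. Between the arrays numbered 2 it was above 0 for 58 of the 68, against 53.9% of all tested probes, with a median of 0.24 against 0.025 over all tested probes, and above 0.2 log2 units for 39, against 24.3%. The RNA came from bulk cells, so a different share of cells in S phase and a different amount of histone RNA per cell cannot be told apart. How far these probes follow the histone RNA of the cells was not known, so a difference in the cells is not shown. The median value of the 68 probes was 7.54 and 7.78 log2 units in the PDLIM2 arrays 1 and 2, against 7.52 and 7.49 in the mock arrays 1 and 2. The median of all tested probes was 7.55 on each of the 4 arrays. The PDLIM2 array 2 gave the highest of the 4 values for 36 of the 68 probes, against 32.4% of all tested probes, and the mock array 2 the lowest for 38, against 25.8%, so probe by probe both arrays numbered 2 stood out, in opposite directions. The share above 0 between the arrays numbered 2 was the same for the 34 brighter probes and for the 34 dimmer ones, at 29 of 34 in each.

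**Figure D1:**
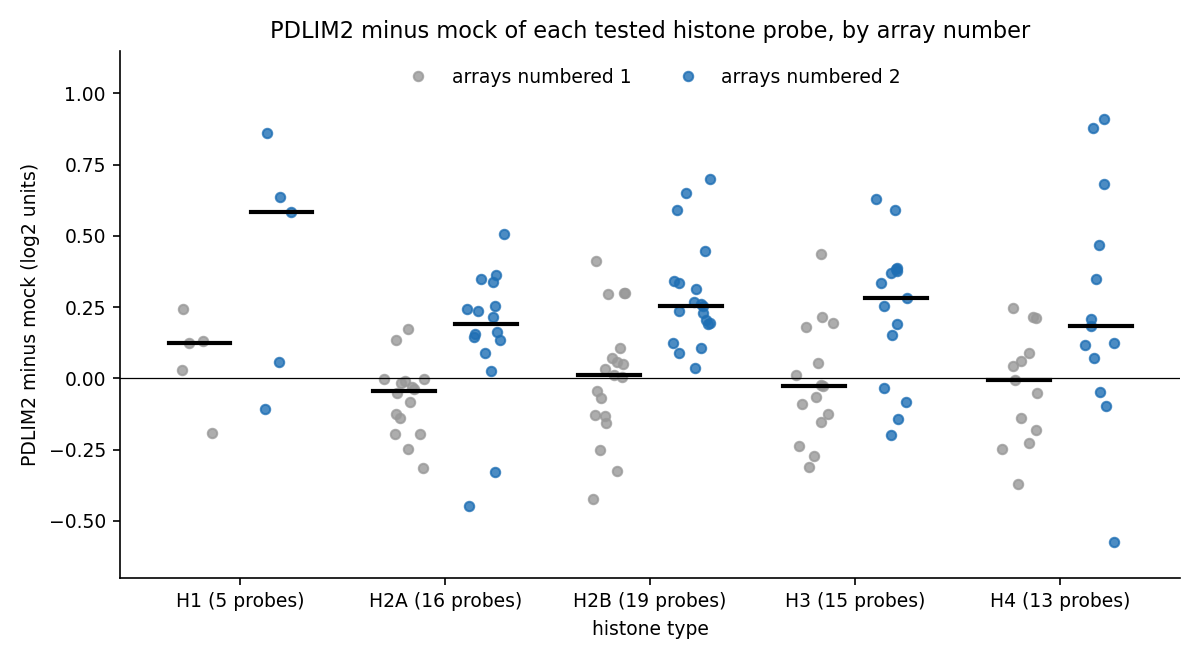
PDLIM2 minus mock in log2 units (vertical axis) for each of the 68 tested histone probes, grouped by histone type. Grey points compare the arrays numbered 1 and blue points the arrays numbered 2. Black lines are medians. The grey points lie on both sides of 0 and 58 of the 68 blue points lie above it, all 19 of the H2B probes among them.

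The counts moved with the array that was left out. Of the 68 histone probes, 45 had a difference above 0 when the PDLIM2 array 2 was left out and 37 when the mock array 2 was, and the median difference was then 0.058 and 0.050 log2 units. These counts were 56 for leaving out the PDLIM2 array 1 and 55 for the mock array 1, with medians of 0.17 and 0.18. The shares of all tested probes above 0 with an array left out are not given here. The counts are therefore not a result about the histone genes. With 1 array per group at each number, the difference between the numbers was not tested. Scan date, slide and culture of the arrays were not used here, and their part in the result was not tested.

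The tested linker histone genes, apart from H1-1, had their highest value on the PDLIM2 array 2. H1 compacts chromatin by binding linker DNA, and 5 of its 6 genes on the array were tested, with differences above 0 for all 5 and a median of 0.33 log2 units. H1-3 read 7.49 and 8.25 log2 units in the PDLIM2 arrays 1 and 2, against 7.37 and 7.62 in the mock arrays 1 and 2. The PDLIM2 array 2 was the high one, and the lower PDLIM2 value lay within the mock range, for a difference of 0.38 (SE 0.27, 95% interval -0.25 to 1.01, limma adjusted p = 0.9998). H1-4 read 6.70 and 7.54 in the PDLIM2 arrays against 6.89 and 6.68 in the mock arrays, a difference of 0.33 (SE 0.28). Its groups overlapped, and its value was -0.086 without the PDLIM2 array 2. H1-5, named after its values were seen, was the H1 gene whose groups did not overlap, with 6.78 and 7.25 in the PDLIM2 arrays against 6.65 and 6.66 in the mock arrays.

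H1-2 differed more between the array numbers than between the groups. It is one of the members known to give polyadenylated transcripts, and it read 11.19 and 11.80 log2 units in the PDLIM2 arrays 1 and 2, against 11.16 and 11.74 in the mock arrays 1 and 2. Array 2 was the high one in both groups, by 0.61 with PDLIM2 and by 0.58 with mock, while PDLIM2 exceeded mock by 0.03 at number 1 and 0.06 at number 2. The fitted difference was 0.043 (SE 0.28, 95% interval -0.61 to 0.70, limma adjusted p = 0.9998), and this SE includes the spread between the numbers. With the array number as a replicate block, the SE was 0.14 (limma adjusted p = 0.97).

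The H2A genes had mostly small differences, and 1 of them, H2AC6, had with H4C3 the lowest of the family. H2A forms the outer part of the nucleosome with H2B. Of its 16 tested probes, 11 had a difference above 0 and 5 below, with a median of 0.068 log2 units. H2AC18 and H2AC19, near-identical neighbours whose transcripts a probe may not tell apart, had the brightest H2A probes. H2AC18 read 11.13 and 11.21 log2 units in the PDLIM2 arrays 1 and 2, against 11.27 and 11.12 in the mock arrays 1 and 2. H2AC19 read 10.92 and 11.18 in the PDLIM2 arrays, against 10.93 and 11.02 in the mock arrays. Their differences were -0.025 (SE 0.17) and 0.077 (SE 0.18), and the groups overlapped for both. The second, dimmer probe of H2AC18 differed by 0.16. H2AC20 differed by 0.11 (SE 0.17, 95% interval -0.29 to 0.52). H2AC16 had the highest difference of the type, 0.26 (SE 0.17), with 6.25 and 6.32 in the PDLIM2 arrays against 6.08 and 5.98 in the mock arrays, so its groups did not overlap. H2AC25, named after its values were seen, lay below mock at both numbers, with 10.07 and 9.89 in the PDLIM2 arrays against 10.31 and 10.22 in the mock arrays.

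H2AC6, which also gives polyadenylated transcripts, read 8.79 and 7.90 log2 units in the PDLIM2 arrays 1 and 2, against 9.10 and 8.35 in the mock arrays 1 and 2. Array 2 was the low one in both groups, by 0.89 with PDLIM2 and 0.76 with mock, and at each number the PDLIM2 value was the lower, by 0.31 at number 1 and 0.45 at number 2. Because the numbers differed by more than the groups, the groups overlapped. The difference was -0.38 (SE 0.35, 95% interval -1.21 to 0.45, limma adjusted p = 0.9998), and this SE includes the spread between the numbers. With the array number as a replicate block, the SE was 0.14 (limma adjusted p = 0.62). The labels do not say that same-numbered arrays belong together. Leaving out the PDLIM2 array 1 gave -0.83, and leaving out the PDLIM2 array 2 gave 0.067.

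H2AC6 shares the space between start sites with an H2B gene, H2BC4, which is transcribed the other way. H2BC4 read 8.40 and 8.73 log2 units in the PDLIM2 arrays 1 and 2, against 8.83 and 8.28 in the mock arrays 1 and 2. PDLIM2 minus mock was thus -0.42 at number 1 and 0.45 at number 2, for a fitted difference of 0.011 (SE 0.24). The upstream sequences of the pair are printed because the same bases serve both genes while their probes read differently. They are the 250 bases before each start from RefSeq (GRCh38.p14), 5′ to 3′ on the strand of the gene. Capitals mark matches on either strand to CCAAT, to the octamer ATTTGCAT and to TATAAA.
H2AC6, chr6:26123922-26124171, plus strand: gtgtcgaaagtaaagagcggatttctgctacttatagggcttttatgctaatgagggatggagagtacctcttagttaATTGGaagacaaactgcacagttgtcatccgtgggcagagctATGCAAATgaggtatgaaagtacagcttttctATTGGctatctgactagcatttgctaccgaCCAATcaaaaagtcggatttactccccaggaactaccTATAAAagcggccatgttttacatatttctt
H2BC4, chr6:26123927-26124176, minus strand: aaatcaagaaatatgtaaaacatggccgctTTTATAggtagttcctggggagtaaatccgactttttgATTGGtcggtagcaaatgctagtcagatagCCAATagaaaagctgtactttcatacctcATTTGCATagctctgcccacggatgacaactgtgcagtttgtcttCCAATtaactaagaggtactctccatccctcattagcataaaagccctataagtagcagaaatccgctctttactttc
The starts of H2AC6 and H2BC4 lie 246 bases apart, so these windows are almost the reverse complement of each other, with 3 CCAAT matches, 1 octamer and 1 TATAAA.

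In all, 11 such pairs of an H2A and an H2B gene with starts 194 to 248 bases apart were found among the members, and both genes were tested for 9. Between the arrays numbered 2, both genes of a pair had a PDLIM2 value above mock in 7 of the 9 pairs, and in the other two, H2BC4 with H2AC6 and H2AC25 with H2BC26, the H2B gene lay above mock and the H2A gene below. Between the arrays numbered 1, both genes were above mock in 1 pair and both below in 4. Taken singly, 58 of the 68 tested histone probes were above 0 at number 2 and 29 at number 1. The counts of pairs are therefore not a result about shared promoters.

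**Figure D2:**
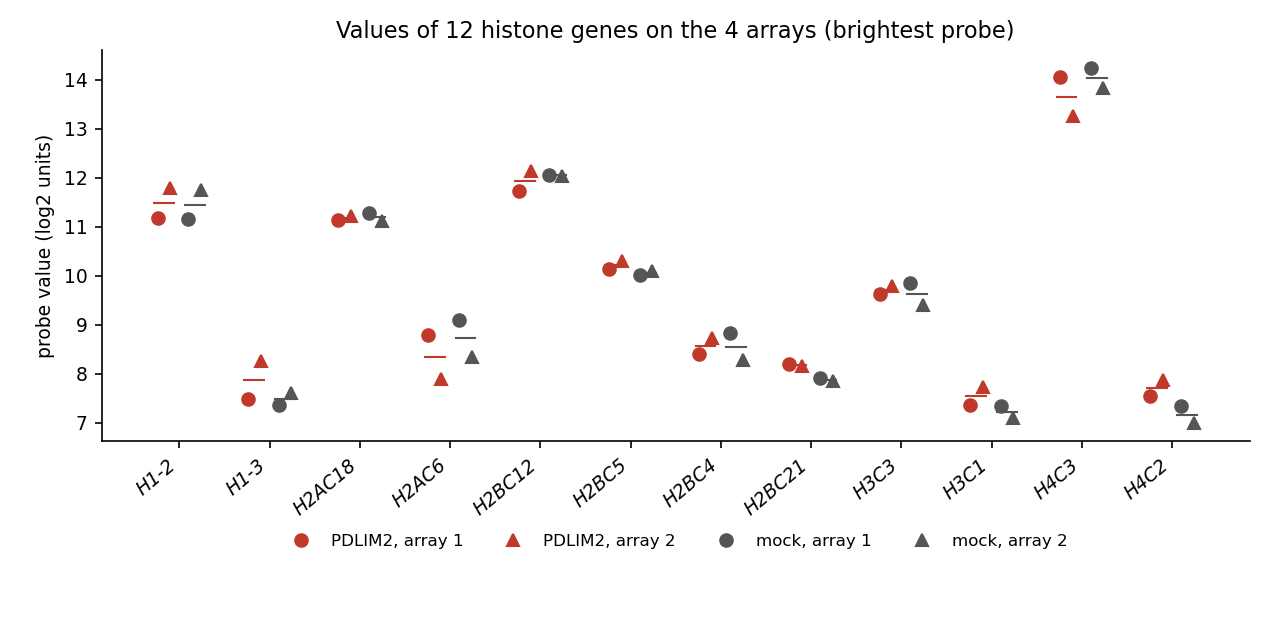
Probe values in log2 units (vertical axis) of 12 histone genes on each array, with the PDLIM2 arrays in red and the mock arrays in grey, circles for array 1, triangles for array 2 and short lines for group means (n = 2 each). H1-2 is high on array 2 in both groups, H2AC6 and H4C3 are low on it in both, and both H2BC21 values with PDLIM2 lie above both with mock.

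The H2B genes lay above mock on every tested probe at number 2. Of 19 tested probes, 16 had a difference above 0 and 3 below, with a median of 0.15 log2 units, and the groups stood apart with PDLIM2 higher for 9 and lower for 0, against 15.8% and 12.8% of all tested probes. Between the arrays numbered 2, all 19 were above 0, by 0.036 to 0.70, and between the arrays numbered 1, 11 of 19 were. H2BC21, an H2B gene on chromosome 1 with known polyadenylated transcripts, read 8.21 and 8.16 log2 units in the PDLIM2 arrays 1 and 2, against 7.91 and 7.85 in the mock arrays 1 and 2. PDLIM2 minus mock was almost the same at both numbers, 0.29 and 0.31, and its groups did not overlap. The fitted difference was 0.30 (SE 0.17, 95% interval -0.086 to 0.69, limma adjusted p = 0.9998), a 1.24-fold higher value.

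H2BC5, another gene with polyadenylated transcripts, had 3 probes, and all lay above mock at both numbers. The brightest read 10.13 and 10.30 log2 units in the PDLIM2 arrays against 10.02 and 10.10 in the mock arrays, a difference of 0.15 (SE 0.17), and the others, of which 1 was under the filter, differed by 0.20 each. H2BC12 had the brightest H2B probe, with 11.74 and 12.14 in the PDLIM2 arrays against 12.06 and 12.03 in the mock arrays. The PDLIM2 values lay on either side of the mock values, the difference was -0.11 (SE 0.20), and its second probe differed by 0.056. H2BC9 read 10.78 and 10.91 in the PDLIM2 arrays against 10.78 and 10.65 in the mock arrays, a difference of 0.13 (SE 0.17). H2BC18 had the highest difference of the type, 0.38 (SE 0.26), from 6.91 and 7.67 in the PDLIM2 arrays against 6.85 and 6.97 in the mock arrays, where the PDLIM2 array 2 was the high one and the groups overlapped. Its 2 untested probes differed by -0.11 and 0.20.

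The 6 members known for polyadenylated transcripts (H1-2, H2AC6, H2BC4, H2BC5, H2BC12 and H2BC21) did not share a direction. By their brightest probes, 4 were above 0 and 2 below, beside 52 of the 68 tested probes of the whole family. None passed the test in limma. With PDLIM2 higher, the groups stood apart for H2BC5 and H2BC21, against 15.8% of all tested probes. With PDLIM2 lower they did for 0, against 12.8%. The median difference of the 6 was 0.027 log2 units. It was -0.14 at number 1, with 3 of the 6 above 0, and 0.15 at number 2, with 5 above 0.

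The 3 brightest H3 genes had differences near 0. H3 carries many of the histone tail marks, and 11 of its 15 tested probes had a difference above 0 and 4 below, with a median of 0.11 log2 units. H3C3 read 9.62 and 9.79 log2 units in the PDLIM2 arrays 1 and 2, against 9.86 and 9.41 in the mock arrays, and its mock values lay on either side of the PDLIM2 values, with a difference of 0.069 (SE 0.21). H3C7 and H3C12 differed by 0.018 (SE 0.20) and -0.009 (SE 0.19), with 95% intervals of -0.45 to 0.48 and -0.46 to 0.44. H3C1 had the highest difference of the type, 0.32 (SE 0.20), with 7.36 and 7.73 in the PDLIM2 arrays against 7.35 and 7.10 in the mock arrays. These groups did not overlap, but PDLIM2 minus mock was 0.011 at number 1 and 0.63 at number 2. H3C6 had the lowest, -0.17 (SE 0.18), with 6.65 and 6.66 in the PDLIM2 arrays below 6.96 and 6.69 in the mock arrays. The 3 probes of H3C13, whose copies H3C14 and H3C15 lie beside it, differed by 0.12 to 0.28.

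The H4 genes held the highest difference of the family and, with H4C3, one as low as that of H2AC6. H4 pairs with H3 at the core of the nucleosome, and 9 of its 13 tested probes had a difference above 0 and 4 below, with a median of 0.062 log2 units. H4C2 was the histone gene with the smallest p. It read 7.55 and 7.87 log2 units in the PDLIM2 arrays 1 and 2, against 7.34 and 6.99 in the mock arrays 1 and 2, so both PDLIM2 values lay above both mock values. The difference was 0.55 (SE 0.21, 95% interval 0.059 to 1.03), or 1.46-fold, with an unadjusted p of 0.0329 and an adjusted p of 0.9998 in limma, and it was 0.21 at number 1 and 0.88 at number 2. The upstream sequence of H4C2 is given beside that of H2BC21, the H2B gene whose difference was alike at both numbers, to show an H4 and an H2B promoter. Both are RefSeq (GRCh38.p14), with capitals as above.
H4C2, chr6:26027284-26027533, minus strand: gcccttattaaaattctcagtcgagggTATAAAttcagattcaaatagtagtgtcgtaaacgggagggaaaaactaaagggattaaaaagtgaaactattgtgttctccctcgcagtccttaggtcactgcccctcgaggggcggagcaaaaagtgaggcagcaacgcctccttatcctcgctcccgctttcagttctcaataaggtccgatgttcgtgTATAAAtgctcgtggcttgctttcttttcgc
H2BC21, chr1:149886683-149886932, minus strand: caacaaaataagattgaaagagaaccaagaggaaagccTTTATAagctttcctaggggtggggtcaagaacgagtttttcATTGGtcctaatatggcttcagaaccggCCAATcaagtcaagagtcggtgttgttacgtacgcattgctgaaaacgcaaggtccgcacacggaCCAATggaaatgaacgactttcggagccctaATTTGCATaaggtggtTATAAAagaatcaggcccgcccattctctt
H4C2 has 0 CCAAT and 0 octamer matches and 2 TATAAA, and H2BC21 has 3, 1 and 2.

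H4C3 had the brightest of all histone probes and the lowest H4 difference. It read 14.055 and 13.26 log2 units in the PDLIM2 arrays 1 and 2, against 14.24 and 13.84 in the mock arrays 1 and 2. Array 2 was low in both groups and PDLIM2 was the lower at each number, by 0.18 and 0.58, and the groups overlapped. The difference was -0.38 (SE 0.29, 95% interval -1.06 to 0.30, limma adjusted p = 0.9998). H4C12 and H4C11 differed by 0.059 (SE 0.17) and 0.13 (SE 0.19), and H4C15 by -0.12 (SE 0.20). H4C16, the gene that stands alone on chromosome 12 and was named after its values were seen, read 6.74 and 7.44 in the PDLIM2 arrays against 6.65 and 6.53 in the mock arrays. Its difference of 0.50 (SE 0.25) was 0.85 when the PDLIM2 array 1 was left out.

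**Figure D3:**
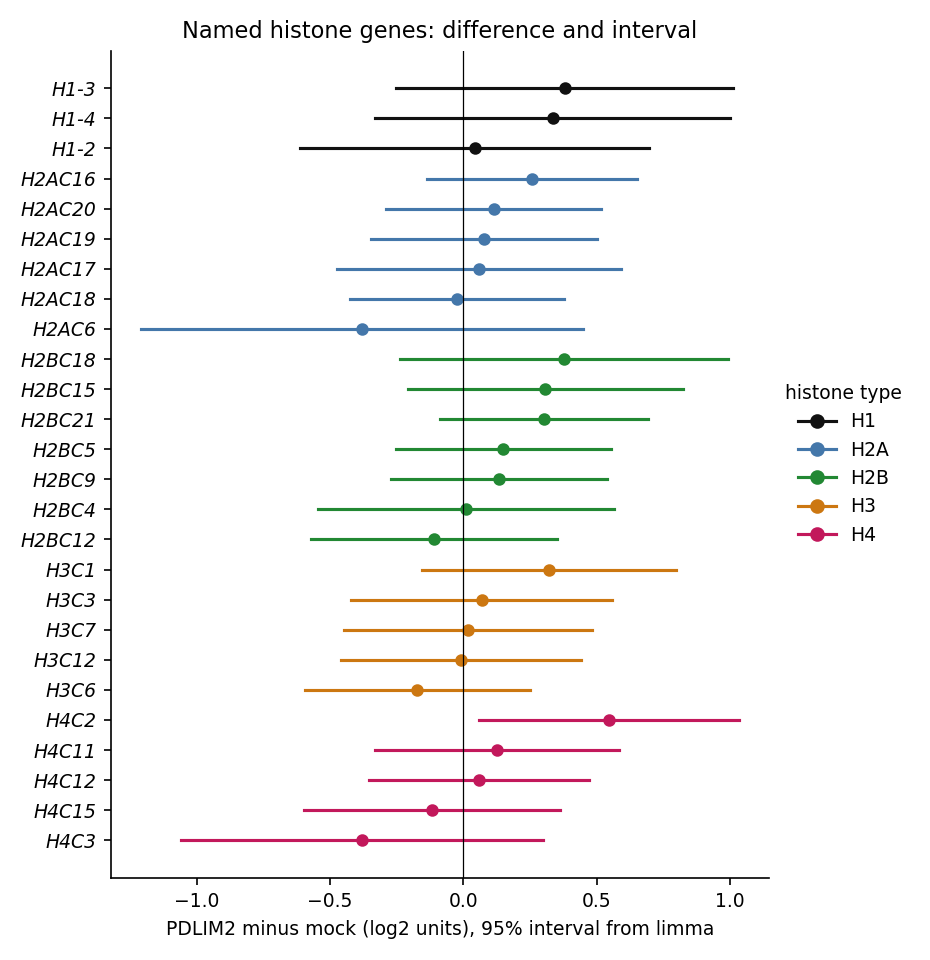
Difference PDLIM2 minus mock in log2 units (horizontal axis) with its 95% interval from limma for the 26 named histone genes, by histone type and size (brightest probe, n = 2 arrays in each group). The interval of H4C2 runs from 0.059 to 1.03 and those of the other 25 genes include 0.

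The same 4 values per probe can be read within each group, where arrays 1 and 2 differed in opposite directions for most probes. Array 2 minus array 1 had a median of 0.12 log2 units over the 68 probes with PDLIM2, with 52 above 0, and of -0.15 with mock, with 18 above 0. For 38 of the 68, array 2 was higher with PDLIM2 and lower with mock, against 18.7% of all tested probes. The reverse held for 4. A difference of at least 1.5-fold in the same direction in both groups was seen for 0 histone probes higher on array 2, against 1.41% of all tested probes, and for 1 lower, H2AC6, against 0.745%. By type, the PDLIM2 and mock medians were 0.61 and 0.25 for H1, 0.12 and -0.13 for H2A, 0.085 and -0.17 for H2B, 0.12 and -0.25 for H3, and 0.081 and -0.27 for H4. H1 was thus the type with a median above 0 in both groups.

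**Figure D4:**
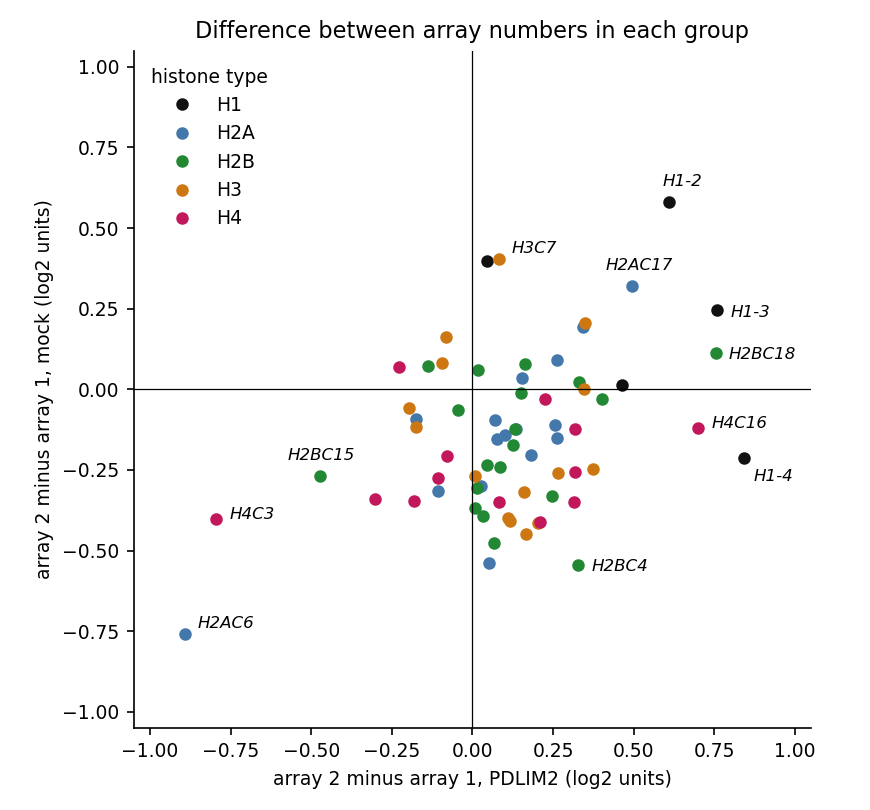
Array 2 minus array 1 in log2 units for each tested histone probe, with PDLIM2 on the horizontal axis and mock on the vertical axis, coloured by histone type. Most points lie to the lower right (38 of 68), H1-2 lies to the upper right and H2AC6 and H4C3 to the lower left.

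Besides H1-2, the genes furthest above 0 in the mean of both groups were H1-3 (0.76 with PDLIM2 and 0.25 with mock), H2BC18 (0.75 and 0.11), H2AC17 (0.49 and 0.32) and H1-4 (0.84 and -0.21). Besides H2AC6 and H4C3, those furthest below were H2BC15 (-0.47 and -0.27), H4C15 (-0.30 and -0.34) and H4C11 (-0.18 and -0.35). H2AC17 differed between PDLIM2 and mock by 0.059 (SE 0.23) and H2BC15 by 0.31 (SE 0.22), with overlapping groups for both.

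Members of the clusters on chromosomes 6 and 1 lay mostly above 0. Of the 52 tested probes for genes on chromosome 6, 40 had a difference above 0, with a median of 0.088 log2 units, and of the 15 on chromosome 1, 11 did, with a median of 0.12. Upstream sequences were found for 65 of the 70 genes, all but H2AC12, H3C11, H3C12, H4C1 and H4C3. CCAAT occurred within 250 bases of the start on either strand in 55 of the 65, against 33.0% of all 27305 promoters in the table, among them every H1, H2A, H2B and H3 promoter and 3 of 13 H4 promoters. The octamer ATTTGCAT, a site of OCT1 known from H2B promoters, occurred in 14 of 18 H2B, 11 of 16 H2A, 1 of 12 H3, 0 of 6 H1 and 0 of 13 H4 promoters, against 1.66% of all. TATAAA occurred in 43 of the 65, against 11.1%. The matches in paired H2A and H2B genes are often the same bases, and a match is no evidence of binding.

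The genes that make and handle histone mRNA showed no call in limma in either direction. Of 17 tested genes for transcription and 3′ end processing of histone mRNA, 10 had a difference above 0 and 7 below, with a median of 0.094 log2 units. SYMPK, the scaffold of the 3′ processing complex, read 8.16 and 8.86 in the PDLIM2 arrays against 8.004 and 8.004 in the mock arrays, a difference of 0.51 (SE 0.25). CCNE1, the cyclin that with CDK2 switches on histone transcription at the start of S phase, read 9.74 and 9.75 in the PDLIM2 arrays against 9.53 and 9.20 in the mock arrays, a difference of 0.38 (SE 0.19). Of 10 genes of histone mRNA decay, 4 were above 0 and 6 below (median -0.043), with TUT7, a terminal uridylyltransferase, at -0.48 (SE 0.28) and the decapping enzyme gene DCP2 at 0.30 (SE 0.20).

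Most histone chaperone genes had values above mock, without a call. Of 18 tested genes, 14 were above 0 and 4 below, against 52.8% above 0 among all tested probes. The median was 0.11 log2 units (0.049 at number 1 and 0.17 at number 2). At number 1, 11 of the 18 were above 0, against 50.4% of all tested probes, and at number 2, 15 were, against 53.9%. SSRP1, a subunit of the FACT complex, read 9.00 and 9.19 in the PDLIM2 arrays against 8.77 and 8.88 in the mock arrays (difference 0.27, SE 0.17). RBBP4, a histone-binding subunit of the CAF-1 assembly factor, had the opposite sign, with 8.40 and 8.26 in the PDLIM2 arrays against 8.70 and 9.26 in the mock arrays (-0.65, SE 0.22). Neither passed in limma (adjusted p = 0.9998).

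Replication-independent histone variants are mostly made outside the S-phase programme from polyadenylated mRNA. Among the 11 tested genes of this list, 5 values were above 0 and 6 below, with a median of -0.10 log2 units. At number 1 the median was -0.14 and at number 2 it was 0.044. CENPA, the H3 variant of centromeres, read 11.23 and 11.30 in the PDLIM2 arrays against 11.56 and 11.44 in the mock arrays (-0.24, SE 0.17). H3-5 differed by -0.28 (SE 0.21), with -0.59 at number 1 and 0.034 at number 2, and its groups overlapped. S-phase genes had 12 values above 0 and 7 below among 19 tested, with a median of 0.035 log2 units (-0.021 at number 1 and 0.046 at number 2). MCM5, a subunit of the replicative helicase, differed by 0.44 (SE 0.19), and the licensing factor gene CDT1 by -0.47 (SE 0.17), and neither passed in limma (adjusted p = 0.9998). Whether the histone genes and the S-phase genes differ in this was not tested.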

How the data were processed

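Illumina bead arrays measured biotin-labelled RNA, polyadenylated per the labels, from 4 samples. Each array has 1 deposited log2 value per probe. How the authors corrected background and normalized is not given in the sources used here. Quartiles agreed within 0.05 log2 units between arrays, so the values were used as deposited. Signal over background was not used here. The table held 47231 probes, of which 47230 were complete. GEO's platform annotation gave 1 gene symbol for 30113 probes, several for 8 and did not list 17110. Members were found through RefSeq gene IDs (GRCh38.p14), where 90 genes carry a HIST1H to HIST4H name, 71 of them protein coding; 70 single genes had a probe and no pseudogene did.

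PDLIM2 minus mock was estimated by lmFit and eBayes (limma 3.58.1, R 4.3.3) on the 23615 probes with a mean above the median of all probes (5.99). Two-sided p-values were adjusted over these probes by the method of Benjamini and Hochberg. Members under the filter have values from the same fit on all probes. The fit had 2 residual and 5.10 prior degrees of freedom and was tested on simulated data. Where a gene has several probes, the brightest stands for it. Members, gene lists and tests were chosen with earlier results of these data known. The named genes are, per histone type, the 3 with the highest mock mean and the largest difference in each direction, the 5 per direction with the largest array 2 minus array 1, the genes with polyadenylated transcripts, and the 2 genes with the smallest p of each further list. Alternatives were leaving each array out, the array number as a replicate block, 1 probe per gene, an offset of 50, a robust or trended prior, quantile normalization or median centring, and the filter dropped or set at the 75th percentile. No sample was dropped or imputed.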

Additional observations from a re-analysis of the deposited data

How the results depend on the processing

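No histone probe was called higher or lower with 1 probe per gene, the replicate block, the offset of 50, the robust prior, limma-trend, median centring, quantile normalization, no filter or the filter at the 75th percentile. Over all probes the replicate block called 1 lower and 0 higher, and same-numbered arrays deviated together (r = 0.476 across probes, which are not independent), but they share only a number in the labels. At the 75th percentile, where 34 histone probes were tested, 26 had a difference above 0, and the groups stood apart for 5 higher and 1 lower. The share above 0 was the same as over the 68, while the share standing apart higher was 14.7%, against 27.9%, and the other 14 were dimmer probes. With an array left out, 1 array is assumed to vary like the others. The ranges were then 0 to 163 probes called higher and 0 to 647 lower over all probes, 0 to 1 histone probes higher (H4C16) and 0 to 1 lower (H2AC6), both without the PDLIM2 array 1, 23 to 45 histone probes with PDLIM2 above mock throughout and 5 to 22 below, and 37 to 56 with a difference above 0. A group of 1 array separates more easily, which raises the counts of probes standing apart. The shares of all tested probes standing apart or above 0 with an array left out are not given here. These ranges are therefore not a result about the histone genes. In the lists, 0 to 1 genes were called higher for histone mRNA transcription and processing and for chaperones, and 0 to 1 lower for decay, S phase and the polyadenylated members, where 0 had been called. The median difference ran from 0.0502 to 0.183 log2 units. Of the 26 named histone genes, 15 changed sign with an array left out and 0 under the other alternatives. Their ranges were -0.26 to 0.35 for H1-2, -0.086 to 0.76 for H1-4, -0.10 to 0.052 for H2AC18, -0.054 to 0.21 for H2AC19, -0.83 to 0.067 for H2AC6, -0.19 to 0.31 for H2AC17, -0.31 to 0.090 for H2BC12, -0.26 to 0.28 for H2BC4, -0.16 to 0.29 for H3C3, -0.18 to 0.22 for H3C7, -0.14 to 0.12 for H3C12, -0.78 to 0.018 for H4C3, -0.045 to 0.16 for H4C12, -0.047 to 0.30 for H4C11 and -0.29 to 0.052 for H4C15. For these, the cause was not tested. The deposited arrays already shared their quartiles, so quantile normalization and median centring could change little.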
